A study of Saccharomyces cerevisiae with 12 samples.

Results

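Nitrogen limitation was compared with carbon limitation in baker's yeast growing at 12 °C. The comparison used 6 of the 12 arrays of the series, chosen by the growth temperature and the limiting nutrient in their labels: 3 arrays of nitrogen-limited cultures and 3 of carbon-limited cultures. All cultures were of Saccharomyces cerevisiae CEN.PK113-7D, a prototrophic haploid laboratory strain of mating type a, grown in chemostats without oxygen on defined medium. A chemostat receives medium and loses culture at one constant rate, so that the cells grow at the rate the operator sets, here 0.03 per hour in both groups. In the nitrogen-limited cultures nitrogen was the scarce nutrient and the carbon source was in excess, and in the carbon-limited cultures the reverse held. The labels describe the 3 cultures of a group as independently grown and give no batch or scan date. The arrays at 12 °C are called C1, C2 and C3 for the carbon-limited replicates and N1, N2 and N3 for the nitrogen-limited ones, and values are always given in that order. The other 6 arrays, 3 a limitation, came from the same strain at the same growth rate at 30 °C and are used below to ask where the response at 12 °C differed.

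Yeast adjusts many genes to the nutrient that limits growth. When a preferred nitrogen source is plentiful, nitrogen catabolite repression keeps permeases and enzymes for poorer nitrogen sources off, by acting on the GATA factors, the activators Gln3 and Gat1 and the repressor Dal80. When glucose is plentiful, glucose repression holds down high-affinity hexose transporters, enzymes for other sugars and genes of respiration. The comparison sets these controls against each other at equal growth rate, so a higher signal under nitrogen limitation can equally be read as a lower signal under carbon limitation.

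Each array measured mRNA with probe sets, groups of short probes for 1 transcript, and the deposited values were linear signal intensities already scaled to a common level, with a trimmed mean of 150.1 on each array. Total RNA per cell therefore cannot be compared, and signals of different genes are not set against each other here. On the 6 arrays 25.5% to 26.7% of probe sets lay under a signal of 12, which was used as the floor before taking log2. Median signal, share under the floor, spike-in signal and the 3' to 5' signal ratios of ACT1 and TBP were compared between the groups. Exact 2-sided permutation tests, with a smallest possible p of 0.1, gave p from 0.2 to 1. These do not show the groups to be alike. The TBP ratio had means of 3.55 under carbon and 2.535 under nitrogen limitation (SD 0.54 in each), and the ACT1 ratio of 1.53 and 1.55. Median signals were 48.1, 46.4 and 46.6 against 41.2, 41.6 and 48.4. The arrays did not split cleanly by limitation: correlations across genes of log2 signals ran from 0.952 to 0.981 within a group and from 0.930 to 0.972 between groups. Array C1 correlated better with N3 (0.972) than with its own replicates (0.970 and 0.969). Array N1 had the lowest correlations within a group (0.952 and 0.957) and between groups (0.930, 0.939 and 0.944). Of 5 markers of mating type a cells, STE6 gave signals from 131 to 200.2 on the 6 arrays and MFA1, MFA2, STE2 and BAR1 of at least 386. Of 4 markers of the opposite mating type, the pheromone gene MF(ALPHA)1 gave signals from 1057 to 2630, SAG1 from 103 to 528.8, STE3 from 38.5 to 85.7 and MF(ALPHA)2 from 25 to 151. Sample codes in the labels run in separate blocks for the limitations, and their meaning is not stated. A batch of culture or handling therefore cannot be told apart from the limitation.

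Of 5400 genes tested, 306 (5.67%) passed at an adjusted p of 0.05 at 12 °C, in limma with Benjamini-Hochberg adjustment. Signals were higher under nitrogen limitation for 98 (1.81%) and lower for 208 (3.85%). At least 2-fold differences numbered 116 (2.15%), with 43 higher (0.796%) and 73 lower (1.35%), and 8 genes differed at least 4-fold. The balance depended on scaling, with 158 higher and 140 lower after each array was scaled to a common median. The median log2 difference over all genes tested was -0.05. The 3 arrays of one group did not overlap the 3 of the other for 305 of the 306 genes, and for 1138 of all 5400 (21.1%). The spread behind these tests was estimated on all 12 arrays, of which those at 30 °C varied less: the median SD of a gene between replicates, on the log2 scale, was 0.26 and 0.28 for carbon and nitrogen limitation at 12 °C against 0.18 and 0.18 at 30 °C. Fitted on the 6 arrays at 12 °C alone, 4 genes passed, PDC5, HXT2, SUC2 and MAL31, and 808 had an unadjusted p under 0.05. Leaving out C2 or C3 gave 196 and 133 genes, and leaving out N2 gave 128. Lower calls were 320 without N3. Under all 17 other settings that kept the arrays at 30 °C in the fit, 59 of the 306 genes passed each time, 16 of them higher and 43 lower.

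**Figure D1:**
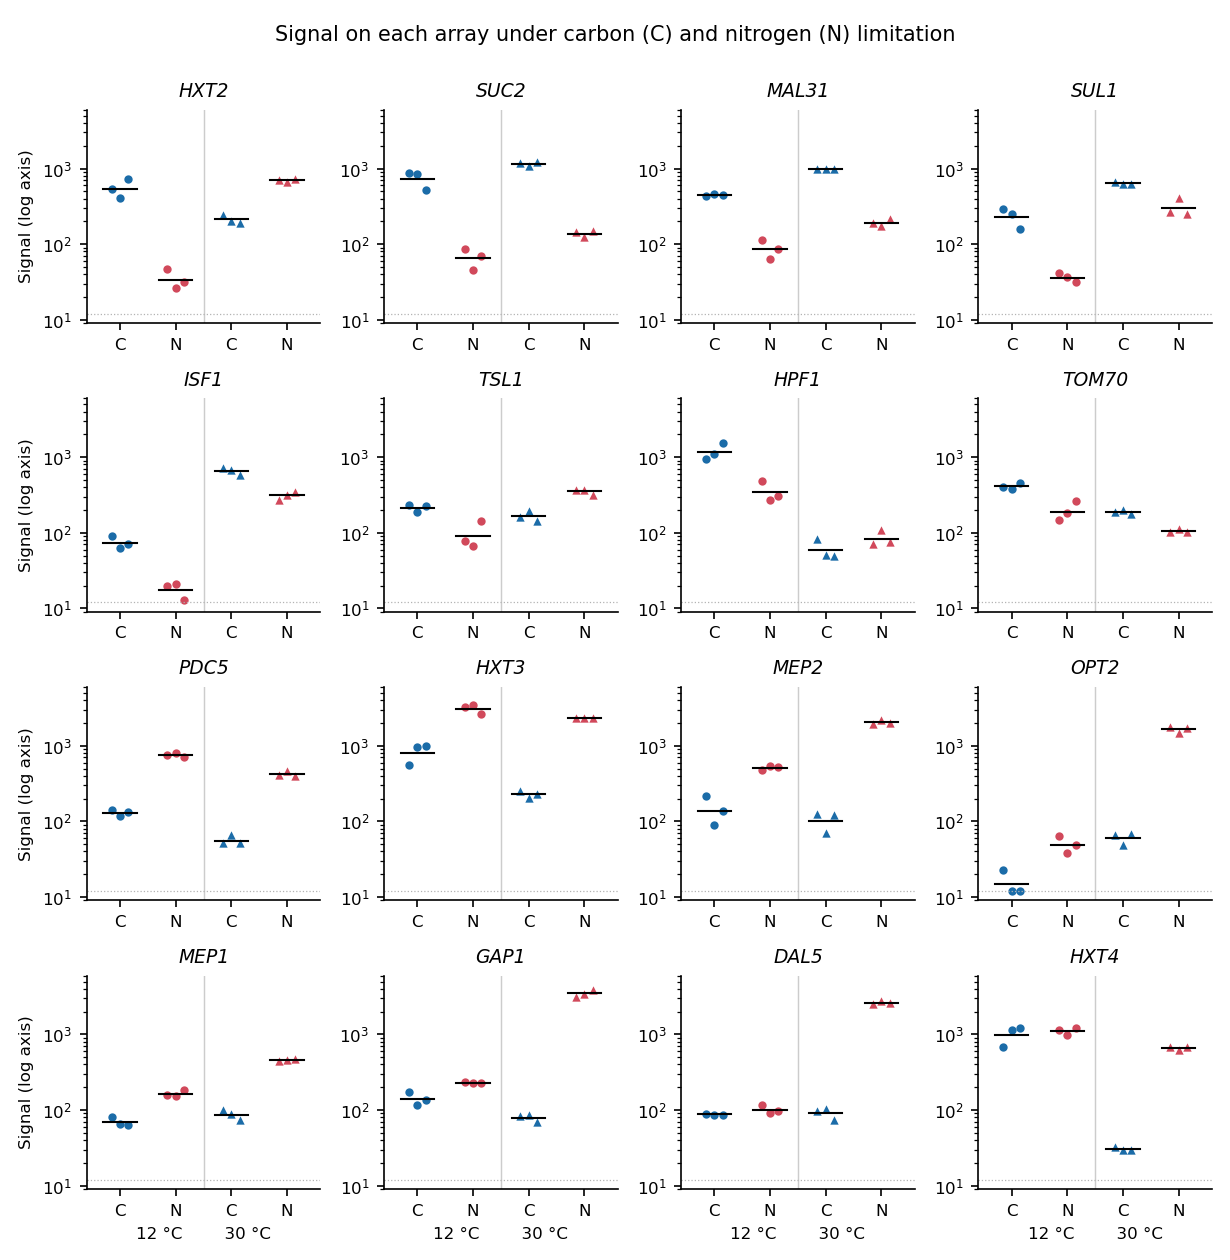
Signal of 16 genes on each array, on a log axis, with circles for 12 °C, triangles for 30 °C, blue for carbon limitation, red for nitrogen limitation, bars for the mean of log2 signals and a dotted line at the floor of 12. HXT2, TSL1 and HPF1 differ between limitations in another way at 12 °C than at 30 °C, and the nitrogen-limited arrays at 12 °C stay near the carbon-limited ones for GAP1, DAL5 and HXT4.

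The largest difference at 12 °C was in a gene of sugar uptake. HXT2, which encodes a high-affinity hexose transporter, gave signals of 537, 408 and 726 on the carbon-limited arrays and of 46.7, 26.6 and 31.7 on the nitrogen-limited arrays. The groups lay far apart, and the gene was 15.9-fold lower under nitrogen limitation (log2 difference -3.99 ± 0.23 SE, adjusted p = 5.18e-08). At 30 °C the direction was the opposite, with mean signals of 214 under carbon and 696 under nitrogen limitation (log2 difference 1.71), and the test of the difference between temperatures passed (adjusted p = 1.49e-08). HXT3, a low-affinity transporter gene, went the other way at 12 °C, with signals of 563, 974 and 983 under carbon limitation and 3235, 3468 and 2605 under nitrogen limitation. It was 3.78-fold higher (log2 difference 1.92 ± 0.20, adjusted p = 3.86e-05), with all nitrogen-limited arrays above all carbon-limited ones.

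HXT7 and HXT6, genes of high-affinity transporters so alike in sequence that their probe sets can share probes, were lower, by 2.09-fold (log2 difference -1.06 ± 0.18, adjusted p = 0.00406) and 1.82-fold (log2 difference -0.86 ± 0.19, adjusted p = 0.0183). HXT7 signals were 2461, 2951 and 2367 against 1691, 1002 and 1113. HXT1, a low-affinity transporter gene near the floor at 12 °C, gave 11.6, 13.8 and 26 against 30.8, 43.4 and 26.9 and passed narrowly (log2 difference 1.02 ± 0.26, adjusted p = 0.0344). MIG2, a repressor of glucose-repressed genes, was higher (16.6, 49.5 and 39 against 100.3, 142.7 and 75.1, log2 difference 1.69 ± 0.34, adjusted p = 0.0106). The hexokinase gene HXK1 was 1.59-fold lower (adjusted p = 0.027) and its relative EMI2 1.69-fold lower (adjusted p = 0.0138). Of 22 tested members of hexose transport and glucose sensing, 3 were higher (13.6%, beside 1.81% of all genes) and 5 lower (22.7%, beside 3.85%). The median log2 difference of the list was -0.18. Without C2 or N2, 3 members were lower in place of 5. The call of HXT6 was lost without C2, C3 or N2 (adjusted p up to 0.0639), that of HXT1 without C1, C2 or N2 (up to 0.123) and that of HXK1 without C2 or N2 (up to 0.0878).

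HXT4 was the hexose transporter gene with the widest contrast between temperatures after HXT2. Its signals at 12 °C were 690, 1148 and 1228 under carbon limitation and 1149, 990 and 1202 under nitrogen limitation, with the groups overlapping (log2 difference 0.16 ± 0.20, adjusted p = 0.668). At 30 °C its mean signal was 30.5 under carbon limitation and 660 under nitrogen limitation (log2 difference 4.43), and the differences at 12 and 30 °C were unequal (adjusted p = 7.44e-08). STD1, a regulator in the glucose-sensing pathway, behaved alike, with a log2 difference of 0.08 ± 0.24 at 12 °C and 2.62 at 30 °C (test of the difference, adjusted p = 1.86e-04). HXT5 was under the floor on every carbon-limited array at 12 °C (4.1, 7.7 and 4.5) and between 13.3 and 16 on the nitrogen-limited ones, without passing (adjusted p = 0.437).

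Genes for other sugars were lower under nitrogen limitation. SUC2, encoding invertase, which splits sucrose, gave 873, 858 and 527 under carbon limitation and 85.2, 45.0 and 70.7 under nitrogen limitation. It was 11.3-fold lower (log2 difference -3.50 ± 0.23, adjusted p = 1.68e-07), and another SUC2 probe set gave -3.64. MAL31, a maltose permease gene, gave 439.2, 454.5 and 448.8 against 114.4, 64.3 and 85.0, or 5.23-fold less (log2 difference -2.39 ± 0.19, adjusted p = 1.45e-06). MAL11, a permease gene for maltose and related sugars, gave 605, 439 and 221 against 105.1, 65.2 and 93.8 (4.5-fold lower, adjusted p = 4.28e-04).

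GAL4, the activator of galactose genes, was 2.59-fold lower (41.1, 37.4 and 47.5 against 17.2, 14.7 and 16.6, adjusted p = 0.00107). The isomaltase genes IMA1 and IMA5 were lower with adjusted p of 0.0326 and 0.0382, at signals close to the floor. IMA1 lost its call without C1, C2 or N2 (adjusted p up to 0.12) and IMA5 without any array but C2 (up to 0.116). Of 14 tested members of maltose, sucrose and galactose use, 6 were thus lower (42.9%, beside 3.85% of all genes) and 0 higher. The median log2 difference was -0.45. At 30 °C 6 members were lower and 0 higher (median -0.53), against 12.6% and 14.3% of all genes. SUC2, MAL31 and MAL11 had log2 differences at 30 °C of -3.07, -2.35 and -1.83. The test of the difference between temperatures passed for none of these 3 genes (adjusted p from 0.472 to 0.948). SUC2 and MAL31 were read by probe sets that may also match related genes.

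A pyruvate decarboxylase gene stood out among those of fermentation. PDC5, a minor isoform of the enzyme that turns pyruvate into acetaldehyde, gave 140, 117 and 132 under carbon limitation and 749.6, 806.4 and 713.1 under nitrogen limitation. Its 5.84-fold difference had the lowest adjusted p of any gene higher at 12 °C (log2 difference 2.54 ± 0.16, adjusted p = 1.56e-07), and at 30 °C the means were 56.2 and 426. PDC6, another minor isoform, was higher by 0.99 ± 0.25 on the log2 scale (adjusted p = 0.0344). In the list of glycolysis, ethanol and glycerol formation, 2 of 35 tested members were higher, PDC5 and PDC6, and 1 was lower, HXK1. These made up 5.71% and 2.86% of the list, beside 1.81% and 3.85% of all genes. PDC6 lost its call without C2, C3, N1 or N3 (adjusted p up to 0.117), and without C3, N1 or N3 just 1 member of the list was higher. The call of PDC6 was also lost with a floor of 25 or 50, no filter on dim genes, a replicate block or array weights. GUT2, the mitochondrial glycerol 3-phosphate dehydrogenase gene, was 3.27-fold lower (50.2, 65.4 and 85.6 against 14, 22.0 and 26.2, adjusted p = 0.00191). With ATO2 (log2 difference -1.14) and REG2 (-1.03) it made up the 3 of 26 members of gluconeogenesis, glyoxylate and acetate use that were lower, with 0 higher. These 3 were 11.5% of the list, beside 3.85% of all genes. REG2 fell short without C1, C3, N1 or N2 (adjusted p up to 0.139).

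Genes of nitrogen supply had fewer calls at 12 °C than at 30 °C. Over 5 lists on nitrogen use, with each gene counted once, 71 genes were tested, of which 6 were higher under nitrogen limitation (8.45%, beside 1.81% of all genes), 1 was lower (1.41%, beside 3.85%) and 64 did not pass. The median log2 difference was 0.12, and the arrays did not overlap for 21 of the 71 (29.6%, beside 21.1% of all genes). At 30 °C 37 of the 71 were higher and 12 lower, against 14.3% and 12.6% of all genes, with a median of 0.64.

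The ammonium permease genes were among the 6. MEP2, a high-affinity permease gene whose product also signals nitrogen starvation, gave 213.5, 89.2 and 137.5 under carbon limitation and 484.3, 533.9 and 521.1 under nitrogen limitation (3.72-fold higher, log2 difference 1.90 ± 0.27, adjusted p = 9.51e-04). MEP1 gave 81.3, 65.7 and 64 against 155.8, 151.8 and 181.8 (2.33-fold higher, adjusted p = 0.0016). Neither gene's groups overlapped. Both differences were smaller than at 30 °C, where the log2 values were 4.32 for MEP2 and 2.40 for MEP1 (tests of the difference, adjusted p = 9.20e-04 and 0.0101). MEP3 had a log2 difference of 0.55 ± 0.28 and did not pass (adjusted p = 0.24). Of ammonium assimilation, the glutamine synthetase gene GLN1 had a log2 difference of 0.50 ± 0.17 (adjusted p = 0.0953), the glutamate dehydrogenase gene GDH1 of 0.38 ± 0.16 and the glutamate synthase gene GLT1 of -0.14 ± 0.18. Of the 9 tested members of ammonium uptake and assimilation, 2 were higher, MEP1 and MEP2, and 7 did not pass. The 2 made up 22.2% of the list, beside 1.81% of all genes.

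GAP1, encoding the general amino acid permease and a standard marker of nitrogen catabolite repression, gave 174.6, 115.1 and 134.4 under carbon limitation and 231.2, 227.0 and 231.0 under nitrogen limitation. The nitrogen-limited arrays were all above the carbon-limited ones, by 1.65-fold (log2 difference 0.72 ± 0.17, adjusted p = 0.0271). At 30 °C GAP1 went from a mean of 79.2 to 3504, a log2 difference of 5.47, and the differences at 12 and 30 °C were unequal (adjusted p = 6.74e-09). OPT2, an oligopeptide transporter family gene, gave 22.9, 11.1 and 5.1 against 63.4, 38.3 and 48.7, with 2 carbon-limited arrays under the floor (log2 difference 1.72 ± 0.27, adjusted p = 0.00189). AVT4, encoding a vacuolar amino acid exporter, and SAM3, encoding the S-adenosylmethionine permease, were higher by 0.77 and 1.02 on the log2 scale (adjusted p = 0.0433 and 0.0223). The other SAM3 probe sets gave values from -0.09 to 0.56. GAP1 lost its call without C2, C3 or N2 (adjusted p from 0.072 to 0.0853), and AVT4 and SAM3 without C2, C3, N1 or N2 (up to 0.142 and 0.0763).

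BAP2, a permease gene for branched-chain amino acids, was the member that was lower (152, 192 and 187 against 129.0, 77.2 and 82.9, log2 difference -0.91 ± 0.20, adjusted p = 0.0219). Of 34 permeases of amino acids, peptides and ammonium, 6 were thus higher (17.6%, beside 1.81% of all genes) and 1 lower (2.94%, beside 3.85%). The median of the list was 0.21. Without C2, C3 or N2, 3 permeases were higher in place of 6, and BAP2 lost its call without the same arrays (adjusted p up to 0.0826). MEP1 and MEP2 kept their calls in all 17 settings named above, and GAP1, OPT2, SAM3, AVT4 and BAP2 each lost it in at least 1.

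For the pathways that break down poorer nitrogen sources no member passed at 12 °C with the settings used throughout. This held for the 12 genes of allantoin and urea use, the 19 of proline, arginine, GABA and asparagine catabolism and the 9 GATA factors and regulators, with median log2 differences of 0.48, -0.02 and -0.05. As 5.67% of all genes passed, lists of this size would hold few calls, and 0 is near that share. The arrays did not overlap for 33.3%, 21.1% and 11.1% of the lists, beside 21.1% of all genes. DAL5, the allantoate permease gene, gave 88.3, 86.9 and 87.1 under carbon limitation and 115.8, 90.8 and 97.3 under nitrogen limitation (log2 difference 0.20 ± 0.17, adjusted p = 0.52). The nitrogen-limited signals lay just above the carbon-limited ones. At 30 °C DAL5 went from 91.0 to 2642.

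PUT1, encoding proline oxidase, gave 22.9, 25.6 and 25.6 against 13.6, 18.6 and 20.8 (log2 difference -0.50 ± 0.21, adjusted p = 0.164), and 31.5 against 508 at 30 °C. DUR3, a urea permease gene, had log2 differences of -0.18 ± 0.24 at 12 °C and 3.74 at 30 °C. The GATA repressor gene DAL80 gave 54.4, 16.7 and 47.8 against 43.6, 50.8 and 51.8 at 12 °C, with overlapping groups, and means of 30.6 and 614 at 30 °C. GAT1, a GATA activator gene, gave 61.9, 51.2 and 58.3 against 72.4, 101.6 and 122.7 at 12 °C. Its groups did not overlap, but the test fell short (log2 difference 0.76 ± 0.22, adjusted p = 0.0548). Of the 71 genes of nitrogen use, the effect at 12 °C was more negative than at 30 °C for 26 and more positive for 9 by the test of the difference.

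A few of these genes passed under other settings. GAT1 passed under quantile normalization, median scaling, eBayes without a trend, a stricter filter and without N1 (adjusted p from 0.0174 to 0.0496). The allantoin genes DAL4 and DCG1 passed under quantile normalization, median scaling and no filter on dim genes (adjusted p from 0.034 to 0.0422), and DAL2 without N1 (adjusted p = 0.0339). CAR2, of arginine catabolism, was lower by -1.09 with an adjusted p of 0.0548, and passed under the stricter filter, with a replicate block and without C2 or N3 (adjusted p from 0.0323 to 0.044).

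Chosen by their values at 30 °C, 18 of the 71 genes were at least 4-fold higher there under nitrogen limitation. At 12 °C their log2 differences ran from -0.50 to 1.90 with a median of 0.51, against 2.00 to 5.47 and a median of 3.00 at 30 °C. Of the 18, 4 passed at 12 °C, GAP1, MEP1, MEP2 and OPT2. The permease genes GNP1, for glutamine, and BAP3, for branched-chain amino acids, went the other way at 30 °C. GNP1 had mean signals of 490 under carbon and 16.4 under nitrogen limitation there, and 32, 41.9 and 28.3 against 27.6, 20.3 and 16.7 at 12 °C (log2 difference -0.67 ± 0.25, adjusted p = 0.125). BAP3 was near the floor in both groups at 12 °C, between 8.7 and 21.1, and its mean at 30 °C was 328 under carbon limitation.

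**Figure D2:**
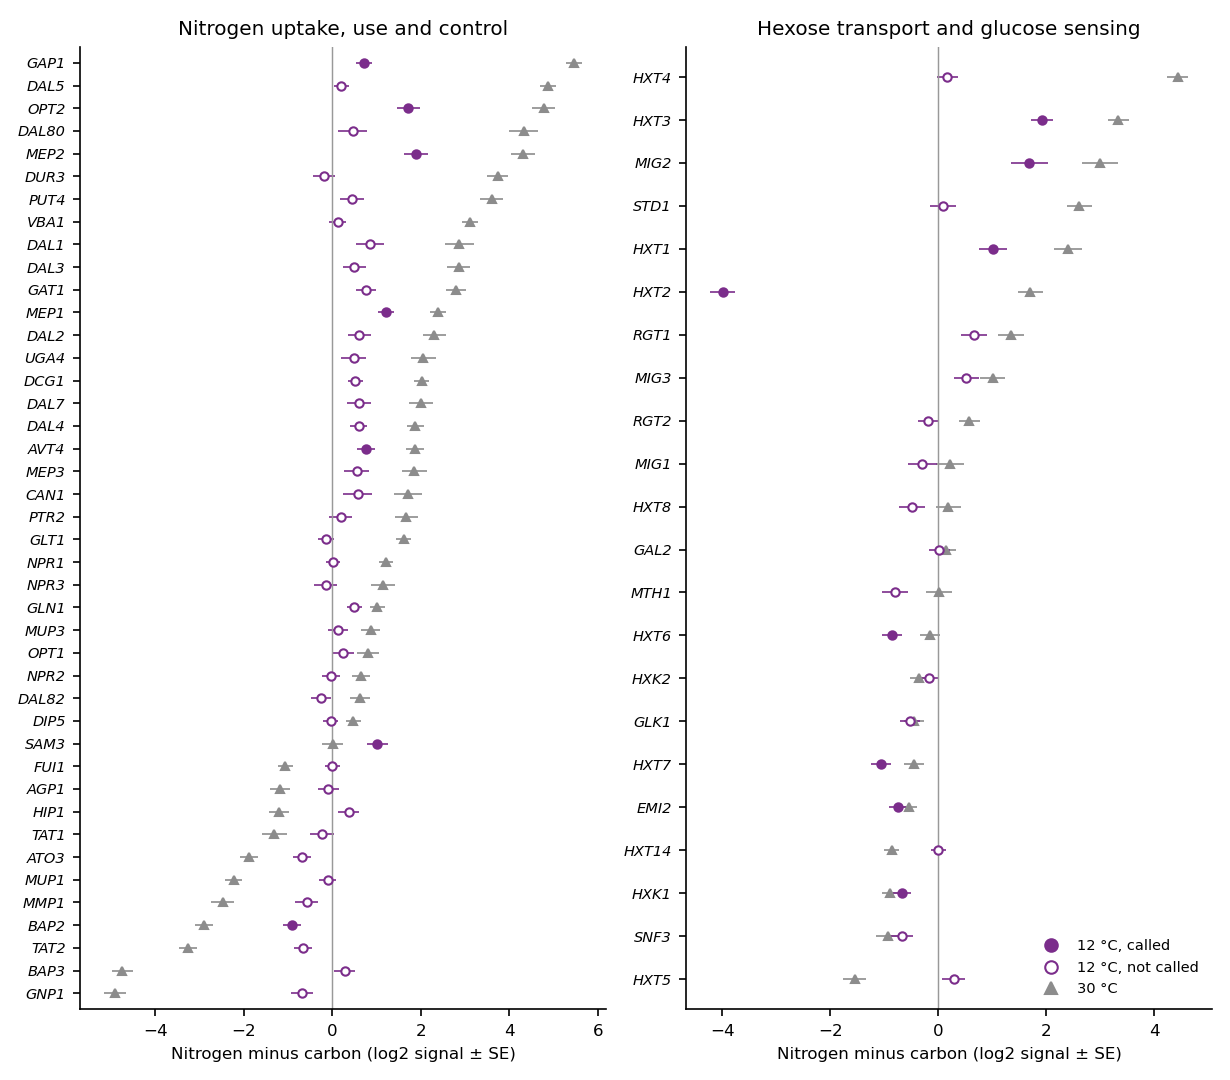
Log2 difference, nitrogen minus carbon limitation, ± SE (3 arrays a group), for genes of nitrogen use that passed at either temperature and for the 22 genes of hexose transport. Genes found only in the list of proline, arginine, GABA and asparagine catabolism are not drawn. Circles are for 12 °C, filled where the test passed there, and triangles for 30 °C. Most circles of nitrogen genes lie near 0 while the triangles reach 5.47 for GAP1, and HXT2 has its circle at -3.99 and its triangle at 1.71.

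Amino acid synthesis and sulfur uptake held 1 called gene each, near the shares of all genes. The higher gene made up 1.52% of the amino acid list, beside 1.81% of all genes. The lower one made up 3.57% of the sulfur list, beside 3.85%. ILV1, encoding threonine deaminase of isoleucine synthesis, was 2.04-fold higher (234, 111 and 164 against 334.9, 323.8 and 334.3, adjusted p = 0.0394), the only call among 66 members, and lost without any array but C1 (adjusted p up to 0.125). SUL1, a high-affinity sulfate permease gene, gave 288.9, 249.3 and 158.8 under carbon limitation and 41.2, 36.5 and 31.6 under nitrogen limitation. It was 6.22-fold lower (log2 difference -2.64 ± 0.23, adjusted p = 5.62e-06), more than at 30 °C (-1.09, test of the difference, adjusted p = 0.00884), and the only call among 28 members of sulfur assimilation and methionine. In purine synthesis 0 of 21 members passed (median 0.08), beside 5.67% of all genes, with at most 1 each way under any other setting.

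Genes of respiration were lower under nitrogen limitation, although no oxygen was supplied to either group. Of 52 tested members of the respiratory chain and ATP synthase list, 17 were lower (32.7%, beside 3.85% of all genes) and 0 higher. The lower ones differed by 1.55-fold to 4.26-fold. The median log2 difference was -0.43 and 44 of the 52 were negative. COX5A, encoding a subunit of cytochrome c oxidase, gave 558, 352 and 424 against 241.3, 164.7 and 213.9 (log2 difference -1.10 ± 0.20, adjusted p = 0.00687). TIM11, an ATP synthase subunit gene, gave 1482, 1626 and 1669 against 652.8, 1049.4 and 989.2 (log2 difference -0.86 ± 0.17, adjusted p = 0.0103). For both genes the groups were apart.

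ISF1, which has a role in respiratory growth, had the widest difference of the list, with 91, 62.5 and 71 against 19.6, 20.8 and 12.8 (4.26-fold lower, adjusted p = 4.92e-05). RGI2, also linked to respiratory growth, was under the floor on all nitrogen-limited arrays (31.2, 33.7 and 23 against 3.8, 6.3 and 8.9) and so at least 2.41-fold lower (adjusted p = 0.00489). The ATP synthase inhibitor gene INH1, the NADH dehydrogenase gene NDE1 and COX26 were 2.21-fold to 2.39-fold lower (adjusted p from 0.00252 to 0.0258). INH1 fell short without C1, C2 or N2 (adjusted p up to 0.0841) and NDE1 without C1, C3 or N2 (up to 0.0962). HAP4, the activator subunit that drives respiratory genes, was 1.65-fold lower (252, 180 and 162 against 130.2, 112.2 and 111.0, adjusted p = 0.042), a call lost without C1, C2, N2 or N3 (adjusted p up to 0.117). COX4, QCR2 and RIP1, subunit genes of the same chain, had log2 differences of 0.04, 0.13 and 0.18 and did not pass, while at 30 °C they had -1.59, -1.72 and -0.92.

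The number of respiratory genes that were lower depended on single arrays. It was 9 without C3 and 7 without N2, and only COX5A and TIM11 kept their call in all 17 settings. At 30 °C 45 of the 52 were lower and 0 higher, against 12.6% and 14.3% of all genes, with a median of -1.02. All 17 genes called at 12 °C were also lower at 30 °C. For 11 of the 52 the effect at 12 °C was more positive than at 30 °C by the test of the difference. In the TCA cycle 0 of 26 members passed at 12 °C (median -0.18), beside 5.67% of all genes, and 1 was higher without C1. At 30 °C 11 were lower and 1 higher, against 12.6% and 14.3% of all genes. The test of the difference between temperatures passed for 3 of the 26.

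Other mitochondrial genes were lower as well, in a pair of lists drawn up after the values had been seen. Of 75 genes of mitochondrial ribosomal proteins 6 were lower and 0 higher (median -0.46), and of 95 genes of mitochondrial import, gene expression and complex assembly 17 were lower and 0 higher (median -0.39). MRP51, of the small ribosomal subunit, gave 88, 84.4 and 123.1 against 42.0, 31.6 and 43.7 (log2 difference -1.33 ± 0.22, adjusted p = 0.00324). RPO41, the mitochondrial RNA polymerase gene, gave 128, 182 and 178 against 67.7, 53.0 and 77.8 (-1.30 ± 0.22, adjusted p = 0.00406). In both genes every nitrogen-limited array was below every carbon-limited one.

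TOM70, encoding a receptor of the import machinery of the outer membrane, gave 400, 380 and 455 against 148.0, 180.5 and 261.2 (-1.10 ± 0.20, adjusted p = 0.00497). PET494, a translational activator of a cytochrome oxidase subunit, gave 209, 217 and 228 against 73.5, 93.8 and 123.3 (-1.20 ± 0.21, adjusted p = 0.00406). The groups stayed apart, with N3 the highest of its group for both. MRPL15, MRPL49 and RML2, of the large mitochondrial ribosomal subunit, had log2 differences of -1.16, -0.90 and -0.88, and SLM5, a mitochondrial aminoacyl-tRNA synthetase gene, and CBP4, an assembly factor gene, of -1.31 and -1.21.

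Over these 3 lists 40 of 222 genes were lower (18.0%) and 0 higher, beside 3.85% and 1.81% of all genes. As all but the respiratory list were drawn up after the values had been seen, these shares are a description only. Of the 40, 38 were also lower at 30 °C, and the difference between temperatures passed for 2. Without N3, 17 mitochondrial ribosomal genes were lower in place of 6. For import, gene expression and assembly, the 17 became 9 without C1 or N2, 7 without C3 and 11 without N1.

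**Figure D3:**
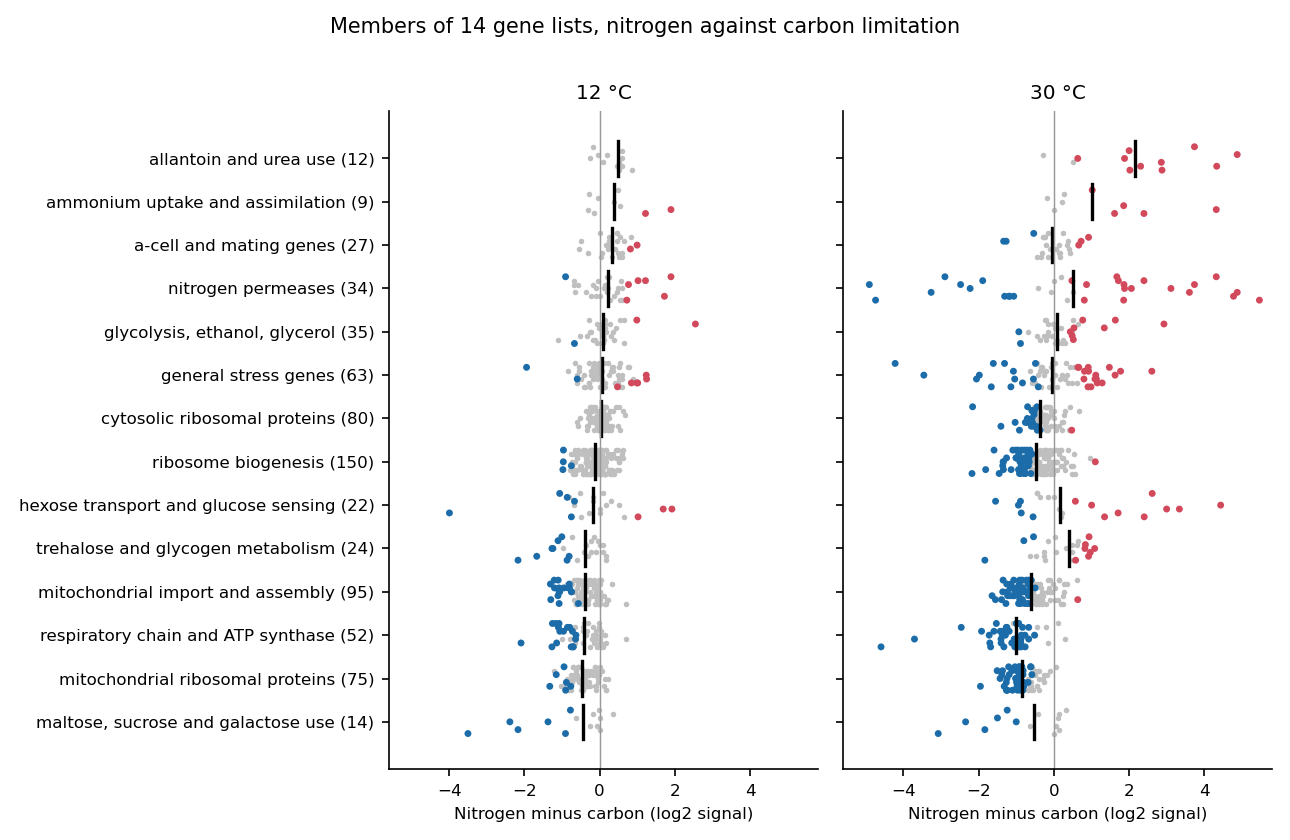
Log2 difference, nitrogen minus carbon limitation, of the members of 14 gene lists at 12 °C (left) and 30 °C (right), with a point for each gene, blue for lower and red for higher by the test, grey for neither, a black bar at the list's median and the number tested in brackets. At 12 °C the respiratory and mitochondrial lists have blue points and no red ones. The lists of nitrogen permeases, ammonium and allantoin have medians there of 0.21, 0.381 and 0.485, against 0.50, 1.02 and 2.16 at 30 °C.

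Storage carbohydrate genes were lower under nitrogen limitation at 12 °C, and a few of them were higher at 30 °C. TSL1, a regulatory subunit of the trehalose synthase complex, gave 234, 186 and 224 under carbon limitation and 76.8, 66.6 and 143.7 under nitrogen limitation (log2 difference -1.24 ± 0.24, adjusted p = 0.00928). GSY1, a glycogen synthase gene, gave 151, 184 and 150 against 75.5, 55.3 and 71.5 (-1.27 ± 0.22, adjusted p = 0.00406). The groups did not overlap for either gene. At 30 °C the log2 differences were 1.09 for TSL1 and 0.83 for GSY1, both called higher, and the tests of the difference gave an adjusted p of 5.79e-04 for each.

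GAC1, which targets a phosphatase to glycogen synthase, was 3.19-fold lower (93.4, 66.4 and 76.6 against 29.1, 16 and 31.5, adjusted p = 0.00189). ATH1, encoding acid trehalase, GLC3, the glycogen branching enzyme, GLG1, glycogenin, and GDB1, the debranching enzyme, had log2 differences of -1.01, -1.11, -0.81 and -0.87, with adjusted p from 0.00757 to 0.0493. GDB1 was the single gene of the 306 whose groups overlapped. GDB1 and GLG1 lost their calls without C1, C3, N1 or N2 (adjusted p up to 0.129 and 0.137), and GLC3 without those or C2 (up to 0.116). With MAL11, whose product also carries trehalose, 8 of 24 tested members of trehalose and glycogen metabolism were lower and 0 higher. The 8 were 33.3% of the list, beside 3.85% of all genes, and the list's median was -0.38. Without C1, C3, N1 or N2, 5 were lower. At 30 °C 7 were higher and 3 lower, against 14.3% and 12.6% of all genes, with a median of 0.40. The trehalose 6-phosphate synthase gene TPS1 (-0.61 ± 0.21, adjusted p = 0.0998) and the second glycogen synthase gene GSY2 (0.10 ± 0.28) did not pass at 12 °C.

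General stress genes were called in both directions. Of 63 tested members 6 were higher (9.52%, beside 1.81% of all genes) and 2 lower (3.17%, beside 3.85%), with a median of 0.06. Median scaling gave 8 higher and 1 lower, and eBayes without a trend 3 higher. TMA10 gave 376, 248 and 326 against 51.5, 105.8 and 98 (3.85-fold lower, log2 difference -1.94 ± 0.24, adjusted p = 4.28e-04), and at 30 °C its log2 difference was -0.35 without passing. The peroxiredoxin gene PRX1 was lower by -0.60. HSP26, a small heat shock protein gene, was higher (59, 41.8 and 62.8 against 102.3, 78.6 and 157.2, log2 difference 1.01 ± 0.22, adjusted p = 0.02). It was the only call among 35 heat shock chaperones (2.86%, beside 1.81% of all genes). PHM8 (1.24), HSP30 (1.25), MOH1 (0.99), SPI1 (0.84) and YGP1 (0.47) made up the remainder of those higher. PHM8 was also the only call among 20 genes of phosphate uptake and polyphosphate (5%, beside 1.81% of all genes). Without C2 or N2, 2 stress genes were higher, and without C3, 3. The lower ones numbered 1 without C1, C3 or N2 and 4 without N3. HSP26 lost its call without C2 (adjusted p = 0.063), PHM8 without C3 (0.0519), HSP30 without C1, C2, N1 or N2 (up to 0.17) and PRX1 without C1, C3 or N2 (up to 0.12). MOH1 lost it without C2, N1 or N2 (up to 0.105), SPI1 without C2, C3, N2 or N3 (up to 0.127) and YGP1 without any array but N3 (up to 0.105).

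Growth rate was equal by design at both temperatures. None of 80 cytosolic ribosomal protein genes passed at 12 °C (median 0.03), beside 5.67% of all genes. Among these 80, 1 was lower without N1, 1 higher without C3 and 2 higher without N3. At 30 °C 21 were lower and 1 higher (median -0.36), against 12.6% and 14.3% of all genes. The test of the difference between temperatures passed for 2 of the 80. Of 150 ribosome biogenesis genes 4 were lower (2.67%, near the 3.85% of all genes) and 0 higher, SSF2, NOP4, NOP53 and UTP21, at log2 differences from -0.98 to -0.75. The list's lower genes numbered 1 without C2 and 2 without C3, N1 or N2. SSF2 lost its call without C2 (adjusted p = 0.05), NOP4 without C2, C3 or N1 (up to 0.0699), NOP53 without any array but N3 (up to 0.131) and UTP21 without C1, C3, N2 or N3 (up to 0.105). At 30 °C 44 of the 150 were lower and 1 higher, against 12.6% and 14.3% of all genes. In cell cycle and histones 0 of 31 members passed (median 0.01), beside 5.67% of all genes, though 1 was lower with no filter on dim genes and 2 without N3. The proteasome subunit gene PRE5 was higher by 0.90 (adjusted p = 0.0258), but not without C2, C3 or N3 (up to 0.0979). It was 1 of 37 in its list (2.7%, beside 1.81% of all genes). Among 83 tRNA genes 5 were higher (6.02%, beside 1.81% of all genes), all read by probe sets that may match several genes.

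Surface and lipid genes gave single calls of some size. HPF1, a cell wall mannoprotein gene, gave 944, 1107 and 1527 under carbon limitation and 486.8, 270.7 and 310.4 under nitrogen limitation (3.39-fold lower, log2 difference -1.76 ± 0.27, adjusted p = 0.00184). At 30 °C its means were 60.6 and 84.5 without passing, and the difference between temperatures passed (adjusted p = 0.00158). PIR3, a cell wall protein gene, was 2-fold higher (303, 312 and 368 against 812.6, 516.6 and 660.1, adjusted p = 0.0277), a call lost without C1, C2, C3 or N1 (adjusted p up to 0.0707). HPF1 and PIR3 were the only calls among 47 other cell wall and flocculation genes. Each made up 2.13% of the list, where 1.81% of all genes were higher and 3.85% lower. None of the 14 genes of the Tir, Dan and Tip mannoproteins passed (median -0.13), beside 5.67% of all genes, with 1 lower without N1.

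SUT1 and ARE2, of sterol uptake and sterol esterification, were lower at -1.17 and -0.82 (adjusted p = 0.0258 and 0.0454), 2 of 33 sterol genes. That share, 6.06%, was near the 3.85% of all genes. Without C2, C3 or N2 0 sterol genes were lower, and without N1 or N3, 1. SUT1 lost its call without C2, C3, N2 or N3 (adjusted p up to 0.0976) and ARE2 without any array but N3 (up to 0.149). Among 40 genes of fatty acid and phospholipid synthesis, the fatty acid elongase gene ELO1 (0.91) and the inositol transporter gene ITR2 (0.66) were higher and the acyl-CoA synthetase gene FAA2 (-1.14) was lower. These made up 5% and 2.5% of the list, beside 1.81% and 3.85% of all genes. The higher calls there were 1 without N1 or N2 and 0 without C3. ELO1 lost its call without C3 (adjusted p = 0.0544) and ITR2 without C2, C3, N1 or N2 (up to 0.171). PLB1, a phospholipase B gene outside the lists, gave 342, 273 and 223 against 653.9, 704.7 and 675.8 (2.47-fold higher, adjusted p = 9.00e-04).

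The remaining lists held few calls, as did all genes, of which 1.81% were higher and 3.85% lower. Of 24 oxygen and heme responsive genes AAC3, an ADP/ATP carrier gene used without oxygen, was higher (0.72, adjusted p = 0.0493) and DLD1, the D-lactate dehydrogenase gene, lower (-0.84, adjusted p = 0.00897). Each made up 4.17% of the list. AAC3 lost its call without any array but N2 (up to 0.167). The copper chaperone gene ATX1 was lower (-0.93, adjusted p = 0.0103), 1 of 31 genes of iron and zinc uptake (3.23%). ATG39, an autophagy receptor gene, gave 30.9, 34 and 48.5 against 12.8, 11.7 and 19.7 (log2 difference -1.36, adjusted p = 0.0039). It was 1 of 42 autophagy and vacuolar protease genes (2.38%). None of 15 thiamine genes passed (median 0.24), beside 5.67% of all genes, with 1 higher under quantile or median scaling.

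Calls among genes of mating were all higher under nitrogen limitation. Of 27 a-cell and mating genes 24 had positive log2 differences, with a median of 0.33, and 2 were called, the mating kinase gene FUS3 (0.99, adjusted p = 0.0221) and PRM3 (0.82, adjusted p = 0.0394). The 2 made up 7.41% of the list, beside 1.81% of all genes. The list's higher calls numbered 0 without C3 or N1 and 1 without C1 or N3. FUS3 lost its call without C3 or N1 (adjusted p up to 0.0729) and PRM3 without any array but N2 (up to 0.0946). MF(ALPHA)2, a pheromone gene of the opposite mating type, gave 25, 33.3 and 28.7 against 151, 53.6 and 69.5 (adjusted p = 0.00627). It was the only call among 11 alpha-cell and sporulation genes (9.09%, beside 1.81% of all genes, with a median of 0.35). Array N1 was the highest of the 6 arrays for MF(ALPHA)2, and at 30 °C the gene's group means lay under the floor.

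The polyamine exporter genes TPO2 and TPO1 were the 2 calls among 21 exporters, both higher (9.52%, beside 1.81% of all genes). TPO2 gave 12.4, 22.7 and 24.8 against 85.8, 112.3 and 85.2 (4.9-fold higher, log2 difference 2.29 ± 0.30, adjusted p = 4.39e-04), and TPO1 was higher by 0.83. TPO1 lost its call without C2, C3, N1 or N2 (adjusted p up to 0.111), and 1 exporter was then called.

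Of the 306 genes, 202 were in none of the 35 lists. AGX1, encoding alanine:glyoxylate aminotransferase, was lower (250, 187 and 231 against 87.5, 70.6 and 103.6, log2 difference -1.36 ± 0.19, adjusted p = 9.88e-04). MRK1, a kinase gene of the GSK-3 family, was lower (169, 117 and 59.8 against 39.3, 26.7 and 24.2, adjusted p = 0.00324). BIM1, encoding a protein of microtubule ends, was lower by -1.48 ± 0.31 (adjusted p = 0.0149), and fell short without C3 (adjusted p = 0.0515).

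RNR3, an isoform gene of ribonucleotide reductase, was higher (38.1, 39 and 36.3 against 116.3, 88.1 and 95.9, log2 difference 1.40 ± 0.24, adjusted p = 0.00406). YRO2, a gene of a plasma membrane protein, gave 212, 189 and 126 against 740.8, 377.4 and 478.9 (2.98-fold higher, adjusted p = 0.00256). WSC4, of a family of cell surface sensors, was 2.45-fold higher (82.3, 94.5 and 59.4 against 229.8, 190.9 and 155.5, adjusted p = 0.00406). For RNR3, YRO2 and WSC4 the nitrogen-limited arrays all lay above the carbon-limited ones. FCY21 (1.40), KTR2 (1.30) and YEA4 (1.25) followed among the higher genes. FCY21 lost its call without C1, C3, N1 or N2 (adjusted p up to 0.087) and YEA4 without C2, C3, N1 or N2 (up to 0.0876).

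The response at 12 °C was then set beside that at 30 °C, where 1452 genes passed (26.9%), 771 higher and 681 lower. The comparisons share no array, but they share the estimate of spread. Of the 306 genes called at 12 °C, 162 were called the same way at 30 °C (48 higher and 114 lower), which is 52.9% of the calls at 12 °C and 11.2% of those at 30 °C. Among the 306 genes the sign was the same at both temperatures for 82.35%, against 61.45% of all genes with a difference at both. The Pearson correlation of the log2 differences across the 5400 genes was 0.394. The SD of the log2 differences over genes was 0.43 at 12 °C and 0.67 at 30 °C, although replicates varied more at 12 °C. The genes called at 30 °C had a median size of 0.90 there and, in the same direction, a median of 0.24 at 12 °C. As they were chosen by passing at 30 °C, the smaller value at 12 °C is in part fixed by that choice.

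The largest same-way differences were those of PDC5, TPO2, HXT3, MEP2 and OPT2, higher at both temperatures, and of SUC2, MAL31, MRK1, MAL11 and AGX1, lower at both. Opposite calls were made for 11 genes. ELO1, HSP30 and RNR3 were higher under nitrogen limitation at 12 °C and lower at 30 °C. GSY1, HFA1, HXT2, LEE1, MFG1, PBI1, PRY1 and TSL1 were lower at 12 °C and higher at 30 °C. For these 11 genes the test of the difference between temperatures passed, with adjusted p from 1.49e-08 to 0.0101. At 12 °C the calls of HFA1 and MFG1 were lost without any array but N3 (adjusted p up to 0.111 and 0.146), that of LEE1 without C1 or N2 (up to 0.0844), that of PBI1 without C3 or N2 (up to 0.104) and that of PRY1 without C1, C3, N2 or N3 (up to 0.121). HSP30 and ELO1 also lost theirs, without C1, C2, N1 or N2 (up to 0.17) and without C3 (0.0544).

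By that test the nutrient effect differed between temperatures for 402 genes (7.44%), being more positive at 12 °C for 157 (2.91%) and more negative for 245 (4.54%). In 344 of the 402 the difference at 12 °C was nearer to 0 than at 30 °C, and in 58 it was further from 0. The estimates had opposite signs at 12 and 30 °C for 254 of the 402, most of them without a call at both temperatures. Of the 306 genes called at 12 °C, 55 were among the 402. Of the 133 genes called at 12 °C and not at 30 °C, only 27 were, so for the other 106 a difference between temperatures was not shown. SIP18 had log2 differences of -0.28 at 12 °C and -4.22 at 30 °C, GRE1 of 0.25 and -3.46, and SHH3 of 0.48 and -2.44. PCK1, the key gene of gluconeogenesis, had 0.65 and -2.25, and CYC1, encoding cytochrome c, -0.99 (adjusted p = 0.075) and -3.70. CPS1, a vacuolar carboxypeptidase gene, had -0.76 and 2.98. The count of 402 fell to 246, 249, 261 and 248 without carbon-limited replicate 1 or 2 or nitrogen-limited replicate 1 or 2 at 30 °C.

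**Figure D4:**
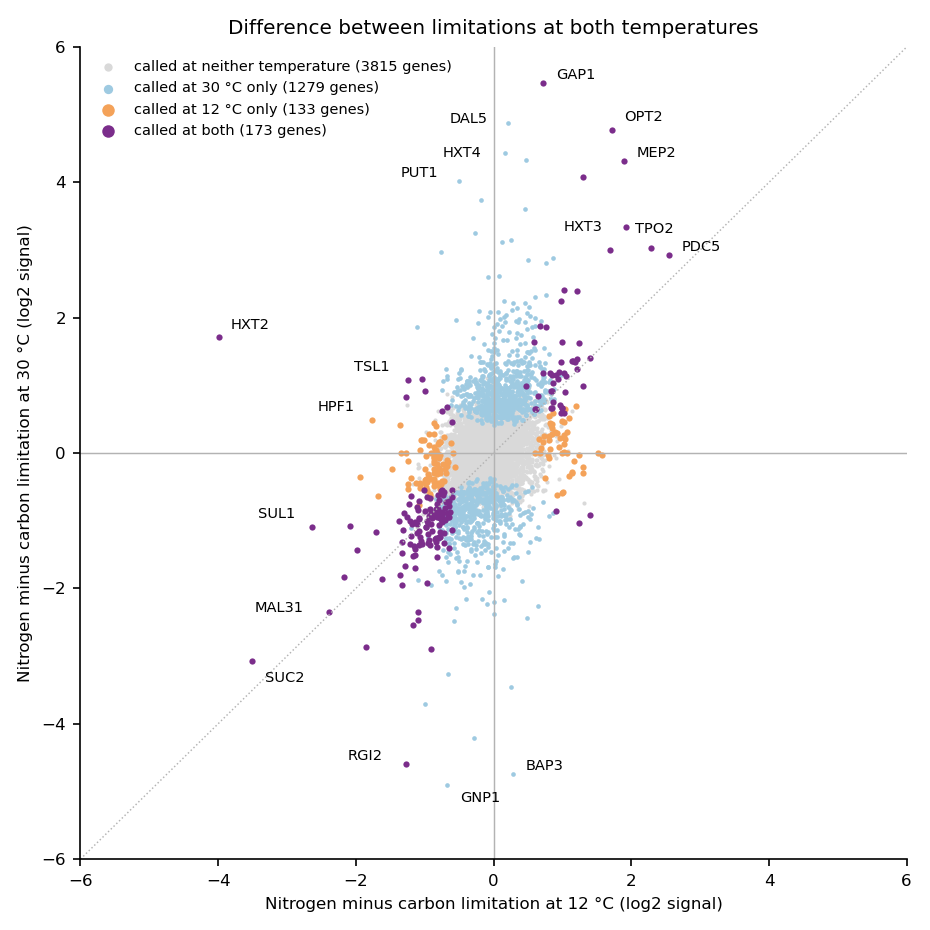
Log2 difference, nitrogen minus carbon limitation, at 12 °C (horizontal) and at 30 °C (vertical) for each of the 5400 genes, with the 173 genes called at both temperatures, the 133 called at 12 °C only and the 1279 called at 30 °C only in separate colours and a dotted line of equal differences. The cloud is taller than it is wide, HXT2 lies apart at the upper left (-3.99 and 1.71), and GAP1 and DAL5 stand high at 30 °C and near 0 at 12 °C.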

How the data were processed

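RNA from 12 chemostat cultures, 3 in each of 4 groups, had been read on Affymetrix YG-S98 arrays. What was deposited is 1 linear intensity a probe set, made in GCOS per the submitters' processing notes, which name neither version nor scaling target. Each array's deposited intensities have the same mean once the highest and lowest 2% are trimmed. Intensities were raised to a floor of 12 and taken to log2. Of 9335 probe sets, 6504 named 1 gene, 328 several and 2503 none in the table used here. The 5656 genes kept the probe set with the highest mean, and 256 genes that did not exceed the floor on at least 3 arrays were dropped.

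The 4 group means were fitted on 12 arrays with lmFit and eBayes with an intensity trend (limma 3.58.1, R 4.3.3). The tests were nitrogen minus carbon limitation at 12 °C, the same at 30 °C, and the difference of both, with Benjamini-Hochberg adjustment over 5400 genes and a threshold of 0.05. The fit was also run on simulated data in which the spread of a gene was the same in all groups. That run could not test the effect of the unequal spread at 12 and 30 °C. SE is from the fit. The number of arrays limits the precision. Groups came from the titles.

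The comparison, the 35 gene lists and the rule for named genes were chosen with earlier results of these data known, so no list supports its own direction. Named were the 15 highest and 15 lowest called genes whose arrays do not overlap, the 8 each way with the largest difference between temperatures, the 5 each way called alike at both, up to 4 called members a list with the largest called against most, and any member of the nitrogen-use and hexose lists. Genes of the respiratory, mitochondrial, storage, maltose and stress lists beyond those 4, among them COX5A, TIM11, TOM70, COX4, QCR2 and RIP1, and genes called opposite ways were named after their values were seen. Alternatives were other floors, filters, scalings, probe set rules and eBayes options, the 6 arrays alone, a replicate block, array weights and each array left out. Replicate numbers did not pair samples: the same-number deviations correlated at -0.06, 0.01 and 0.02. Promoter motifs were not analysed here.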

Additional observations from a re-analysis of the deposited data

Results flagged for a closer look

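The effect of nitrogen against carbon limitation differed between 12 and 30 °C in 402 genes in all, by the limma test of that difference, among them the following genes named above. The values are log2 effects at 12 °C less those at 30 °C.

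Among sugar and fermentation genes the values were -5.70 for HXT2, -4.27 for HXT4, -2.53 for STD1, -1.42 for HXT3, -1.38 for HXT1 and 1.84 for HXT5. Among genes of nitrogen supply, the effect was more negative at 12 °C for GAP1 (-4.74), DAL5 (-4.67), PUT1 (-4.52), DUR3 (-3.92), DAL80 (-3.86), CPS1 (-3.74), OPT2 (-3.06), MEP2 (-2.42), GAT1 (-2.04), GLT1 (-1.76), DAL2 (-1.7), DCG1 (-1.5), DAL4 (-1.28), MEP1 (-1.18) and AVT4 (-1.10). It was more positive at 12 °C for BAP3 (5.02), GNP1 (4.23) and BAP2 (1.99).

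Of the respiratory list, 11 of 52 members had more positive effects at 12 °C by the test. The values for the named genes of respiration that passed were more positive, with RGI2 at 3.32, CYC1 at 2.71, QCR2 at 1.85, COX4 at 1.63, COX5A at 1.36 and RIP1 at 1.09. Of the storage carbohydrate genes named, those that passed had more negative ones, with TSL1 at -2.33, GSY1 at -2.10 and TPS1 at -1.11.

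Of the remaining genes, WSC4 (-2.78), HPF1 (-2.25), PBI1 (-2.13), LEE1 (-1.90), ATG39 (-1.77), TMA10 (-1.60), SUL1 (-1.55), HFA1 (-1.37), MFG1 (-1.35) and PRY1 (-1.07) had more negative effects at 12 °C. SIP18 (3.93), GRE1 (3.71), SHH3 (2.92), PCK1 (2.90), RNR3 (2.31), HSP30 (2.29), ELO1 (1.77), YRO2 (1.61), HSP26 (1.58), PIR3 (1.58), MF(ALPHA)2 (1.52), KTR2 (1.5) and SUT1 (1.37) had more positive ones. For HXT1, HXT5, RGI2, BAP3 and MF(ALPHA)2 at least 1 group had all its arrays under the floor of 12, so that their values are set in part by that floor.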

How the results depend on the processing

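The 12 °C call counts depended on fitting the arrays at 30 °C too. With the 6 arrays at 12 °C alone, which changes both the spread estimate and its degrees of freedom, 4 genes passed, 1 higher and 3 lower, and the same 4 were at least 2-fold different. With array weights 108 passed (36 higher, 72 lower, 68 at least 2-fold), and 2397 at 30 °C. Array N1 had the lowest weight of the 12 arrays (0.288), followed by C3 (0.55). With the replicate number as a block 191 passed (58 higher, 133 lower); the numbers do not pair the cultures. Without a filter on dim genes 58 were higher and 71 at least 2-fold different, and with a floor of 50, 64 were. Median scaling gave 158 higher and 140 lower, and quantile normalization 121 and 167, while both moved the median of all genes by under 0.1. The cause was not tested, beyond the fewer arrays, the floor and the filter themselves. With each array left out in turn, the calls at 12 °C ran from 128 to 394, those higher from 48 to 115, those lower from 78 to 320 and those at least 2-fold from 91 to 196. The count for the difference between temperatures ran from 246 to 480, and the calls at 30 °C from 1015 to 1766. No other count of all genes moved by over 1.5 times, and no named gene changed sign while called. Signals close to the floor and 3 arrays a group set the limit of what could be called, so a gene that did not pass is not shown to be equal.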
